A study of Homo sapiens with 30 samples.

Results

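The genes described here encode the proteins of the cytosolic ribosome, and they were chosen by name: protein-coding genes whose symbol is RPL or RPS followed by digits, with an optional A, AL, X or L, the ribosomal S6 kinases left out, plus RPLP0, RPLP1, RPLP2 and RPSA. The rule found 82 of the 60107 genes in the count table, of which 25347 had at least 1 count. Of the 82 genes, 47 encode proteins of the large subunit, 3 encode the stalk proteins of that subunit and 32 encode proteins of the small subunit. Among them are 5 sister genes, which are close copies of another member: RPL3L, RPL10L, RPL39L, RPL36AL and RPS27L. The genes lie on 21 chromosomes, with 12 on chromosome 19 and 4 on the X chromosome.

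A ribosome joins a small subunit, which reads the mRNA, to a large subunit, which forms the peptide bond, and each subunit is built in the nucleolus from ribosomal RNA and its own set of proteins. Most mRNAs of these proteins start with a C followed by a run of pyrimidines, the terminal oligopyrimidine (TOP) motif. Through that motif the kinase mTOR, acting by LARP1 and the 4E-binding proteins, controls how well these mRNAs are translated and how long they are stored. Hepatocytes make large amounts of secreted protein and so depend on this machinery.

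The cells were HepG2, an established human hepatoblastoma line, transfected with an oligonucleotide and treated 24 h later with sorafenib at 10 µM, a multikinase inhibitor used in liver cancer, or with its solvent dimethyl sulfoxide (DMSO). The 6 h experiment held an inhibitor control (IC) and an inhibitor of miR-200c-3p (I-miR-200c-3p, here I200c). The 24 h experiment held a mimic control (MC) and mimics of miR-222-5p (M-miR-222-5p, here M222) and miR-512-3p (M-miR-512-3p, here M512). A mimic is a synthetic RNA that adds the activity of a miRNA, and an inhibitor pairs with the miRNA and blocks it. Each transfection was measured with DMSO and with sorafenib, so that there were 10 groups of 3 libraries, 30 in all, which the series describes as biological replicates of the 1 line. Every group, the controls included, had been transfected, and time of treatment goes with the kind of control oligonucleotide, so that the pair cannot be told apart.

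The libraries were QuantSeq 3′ libraries, in which 1 fragment is read near the end of each transcript, and they held 3938764 to 9657063 counts. All 10 hepatocyte markers examined were found, with albumin (ALB) at 2053 to 5207 CPM (counts scaled to a common library total), whereas the leukocyte gene PTPRC reached at most 0.144 CPM and the endothelial gene PECAM1 at most 3.08 CPM. Of the fibroblast collagens, COL1A1 reached at most 11.9 CPM and COL1A2 was at 0 in every library. Genes of the mitochondrial genome took 17.5% to 26.8% of the counts. The highest of these shares was in I200c_DMSO replicate 2 and the lowest in M512_sorafenib replicate 3, and numbers of called members without either library are given with the comparisons that use it.

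The starts of the mRNAs were read from the annotated canonical transcripts of GENCODE release 44 on GRCh38, and 10 are printed. They come from members described below, among them RPS6 and the sister pairs RPL36A with RPL36AL and RPS27 with RPS27L. Each is given 5′ to 3′ from the annotated first base, and capitals mark the unbroken pyrimidine run that starts there.
RPS12: CTCTTTCCCTgccgccgccg
RPL26: CTCTTCCCTTTTgcggccat
RPL34: CCTCTTCCggggacgttgtc
RPS24: CTCTTTTCCTCCTTggctgt
RPL12: CCTCTCggctttcggctcgg
RPL36A: CTTTCTTTCCgcgccgatag
RPL36AL: CCTgttaggcgagagctgcg
RPS27: CCTTTCCggcggtgacgacc
RPS27L: gcagatcgcttgcagcttgc
RPS6: CTCTTTTCCgtggcgcctcg
These stretches lie on the plus strand at chr6:132814569-132814588 (RPS12), chr4:108620576-108620595 (RPL34), chr10:78033863-78033882 (RPS24), chrX:101391011-101391030 (RPL36A) and chr1:153990762-153990781 (RPS27). Those on the minus strand are chr17:8383174-8383193 (RPL26), chr9:127451387-127451406 (RPL12), chr14:49620607-49620626 (RPL36AL), chr15:63157458-63157477 (RPS27L) and chr9:19380217-19380236 (RPS6). All lie in the first exon of the transcript.

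A TOP start, taken as a C at the first base followed by at least 4 more pyrimidines, was present in 58 of the 82 members (70.7%). Among the 14838 protein-coding genes with a count, 768 had such a start (5.18%). When the run could begin anywhere in the first 10 bases, the share was 84.1% of members and 20.6% of protein-coding genes. None of the 5 sister genes had a TOP start: RPL36AL opens with 3 pyrimidines where RPL36A opens with 10, and RPS27L opens with a purine where RPS27 opens with 7 pyrimidines. The transcripts were short, with a median length of 781.5 bases against 3198, a median 5′ untranslated region of 42 bases against 136 and a median 3′ untranslated region of 147 bases against 1203.

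The seed of each miRNA was also searched in the 3′ untranslated region of the canonical transcripts, as the 7 bases that pair with positions 2 to 8, which are in capitals in the mature sequences from RefSeq.
hsa-miR-200c-3p: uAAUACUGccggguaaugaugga
hsa-miR-222-5p: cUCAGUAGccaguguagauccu
hsa-miR-512-3p: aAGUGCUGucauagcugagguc
The letters searched, on the mRNA strand only, were CAGTATT for miR-200c-3p. They were CTACTGA for miR-222-5p. They were CAGCACT for miR-512-3p. A match was found in 7 members for miR-200c-3p (8.54%, against 17.6% of protein-coding genes), in 6 for miR-222-5p (7.32% against 9.81%) and in 9 for miR-512-3p (11% against 21.5%). The regions searched were shorter in the members (median 147 bases against 1203), so these shares are not matched for length. A match is a description of these letters and not a site of action.

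Together the members took 7.84% to 13.1% of all counts in a library. The 5 members with the highest mean share were RPS27A (0.812%), whose protein is made as a fusion with ubiquitin, RPL37A (0.698%), RPS29 (0.526%), RPS12 (0.439%) and RPL27A (0.42%). They held 29.4% of the members' counts. Such shares count 3′ fragments, which do not grow with transcript length but do vary with the end that is read, so the order is one of counts and not of mRNA molecules. The ratio of small to large subunit counts stayed between 0.922 and 1.07 over the 30 libraries.

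At the other end, RPL10L had no count in any library, RPL3L had 3 counts in all 30 libraries together and RPL39L had 41, and these 3 sister genes were not tested. RPL17 (878 counts), RPS18 (8280) and RPS26 (12270) were also low. Reads that also match a pseudogene copy or an overlapping gene can be lost or moved in counting, so these 3 genes are uncertain. Pseudogenes of RPL17 held 401% of the counts of RPL17 itself. Over all members, 1586 annotated pseudogenes named after them held 0.476% as many counts as the members. The 79 members other than those 3 sister genes had at least 1 count in every library, and all 79 passed the filter on low counts and were tested in each comparison.

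Replicates lay closer together for these genes than for the median gene. The SD of the log2 level within groups had a median of 0.251 over the 79 members and of 0.425 over all genes tested at 24 h. The sets were not matched for count, so the difference is not read as a trait of these genes. Among the tested members RPL12 (0.128), RPL7 (0.133) and RPL15 (0.133) varied least. RPS18 (0.849), RPS15 (0.699), RPL10 (0.624) and RPL39 (0.6) were among those that varied most. Some of that spread lay in replicate 1 of both MC groups. RPS15, which sits near the decoding centre, was at 144 and 156 CPM in replicate 1 of MC_DMSO and MC_sorafenib. It was between 683 and 1152 CPM in the other 4 MC libraries. RPL10, which helps to join the subunits, followed the same libraries, with 72.5 and 80.8 CPM in replicate 1 and 216 to 384 CPM in the rest. These genes were chosen after their values were seen. CPM are scaled here by the trimmed mean of M values (TMM) of edgeR within each time.

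The first question was whether the share of counts moved with sorafenib. In IC it was 9.13%, 9.68% and 10.2% with DMSO and 9.91%, 9.61% and 10.7% with sorafenib, and the groups overlapped. In I200c it was 8.47%, 7.84% and 8.9% with DMSO and 9.82%, 9.52% and 9.9% with sorafenib, and the groups did not overlap. The difference at 6 h was 0.399 percentage points in IC (9.67% ± 0.533 against 10.1% ± 0.55, SD, n = 3) and 1.34 points in I200c (8.41% ± 0.532 against 9.75% ± 0.2). The DMSO mean of I200c was the lowest of the 10 group means. Without I200c_DMSO replicate 2, the library rich in mitochondrial counts, the difference in I200c was 1.06 points and the groups still did not overlap. No test was made on the shares. All libraries were of 1 line, and in bulk RNA a change in some cells and a change in all cells cannot be told apart. A share is also relative, so more of these counts and fewer of the others cannot be told apart.

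At 24 h the MC libraries held 8.26%, 9.28% and 9.15% with DMSO and 9.95%, 10.0% and 10.7% with sorafenib, with no overlap. The M222 libraries held 8.85%, 10.1% and 9.97% with DMSO and 9.95%, 10.3% and 11.2% with sorafenib, and 1 sorafenib library lay within the DMSO range. In M512 the shares were 9.4%, 9.44% and 9.75% with DMSO and 9.98%, 11.8% and 13.1% with sorafenib. All 3 sorafenib libraries of M512 were above its DMSO libraries, but they were far apart from each other. The differences were 1.33 points in MC, 0.831 points in M222 and 2.1 points in M512, the last with an SD of 1.58 among the sorafenib libraries and of 0.191 among the DMSO libraries. Without M512_sorafenib replicate 3, the library with the lowest mitochondrial share, the difference in M512 was 1.36 points. As a share of counts outside the mitochondrial genome, the M512 libraries held 11.7%, 11.8% and 12.1% with DMSO and 13.2%, 15.6% and 15.9% with sorafenib, which again did not overlap. TMM scaling moved with treatment as well: the effective over total library size was 0.904, 0.841 and 0.98 in the sorafenib libraries of M512 and between 1.005 and 1.085 in the 9 DMSO libraries at 24 h, and its part in the fold changes is given below as the values with total counts.

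**Figure D1:**
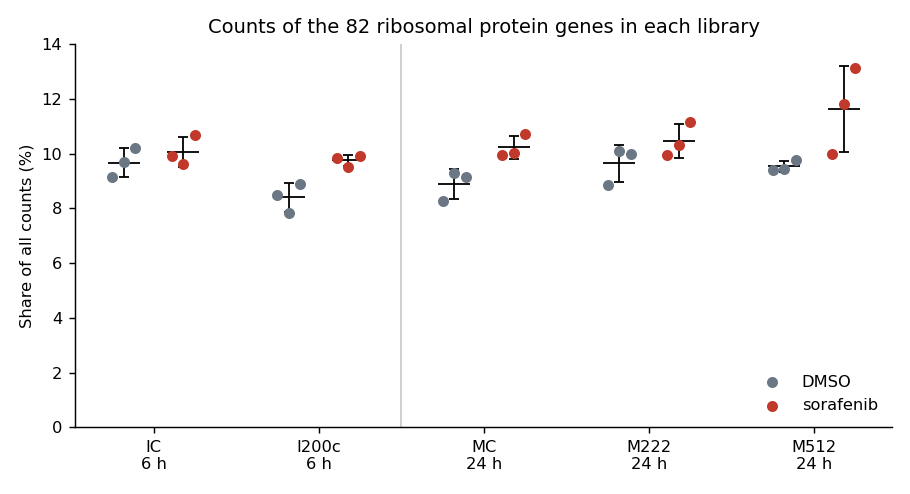
Share of all counts (%, vertical axis from 0) taken by the 82 ribosomal protein genes in each of the 30 libraries, by transfection and time, with DMSO in grey and sorafenib in red; points are libraries in replicate order and black marks give the mean ± SD of 3. The sorafenib points lie above all DMSO points of the same transfection in I200c, MC and M512 but not in IC and M222.

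At 6 h sorafenib changed no member beyond the test. The median log2 fold change over the 79 members was 0.10 in IC and 0.21 in I200c, where the median over all genes tested was 0.00 and 0.00, and the mean of both effects had a median of 0.17 (all genes 0.01). With the quasi-likelihood test of edgeR and adjustment over all 12738 genes, 0 members were called in IC (all genes 0.0393%), 0 in I200c (2.28%) and 0 for the mean effect (2.89%). The counts at an unadjusted p under 0.05 were 0, 19 and 18 (0%, 24.1% and 22.8% of the members, where 3.78%, 15.3% and 15.4% of all genes were under it), and DESeq2 called 0, 3 and 4. The smallest adjusted p by edgeR was 0.999 in IC, 0.0609 in I200c (RPS15) and 0.0839 for the mean (RPS15). Without I200c_DMSO replicate 2 the I200c comparison called 5 members and the mean effect 1. The share of all genes called without that library is not given here.

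Members toward either end of the range at 6 h are given by transfection. In IC these were RPL41, the smallest ribosomal protein, at 0.33 ± 0.25 (log2 fold change ± SE) and RPL10 at 0.30 ± 0.21 on the one side, and RPS25 at -0.20 ± 0.22 and RPL36AL at -0.20 ± 0.17 on the other. In I200c RPS15 was at 0.49 ± 0.13, with RPS26 at -0.29 ± 0.23 and RPL22 at -0.27 ± 0.19. For the mean effect these members included RPS14 (0.33 ± 0.10), RPS26 (-0.23 ± 0.16) and RPL36AL (-0.16 ± 0.12). None of these 8 genes passed the test. The lowest sorafenib library exceeded the highest DMSO library in 9 of the 79 members in IC (11.4%, against 6.1% of all genes). In I200c it did so in 15 members (19.0%, against 8.4% of all genes).

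After 24 h sorafenib up-regulated 30 of the 79 members by the mean effect over MC, M222 and M512, and the other members did not pass. That is 38.0% of the members, all called higher (all genes 25.8%, called higher 13.4%, called lower 12.4%), and DESeq2 called 34, of which 29 were the same genes. The share over all genes is not matched for count or for spread between replicates. The median log2 fold change was 0.29 (1.23-fold) over the members and -0.04 over all 13244 genes, and 75 members were above 0. Called members came from both subunits, 20 of the 47 genes of the large subunit and stalk and 10 of the 32 of the small subunit, with medians of 0.31 and 0.27. Those with a TOP start had a median of 0.31 (23 of 58 called) and those without one 0.23 (7 of 21 called).

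Scaling to total counts in place of TMM moved every gene: the median of all genes went from -0.04 to -0.17, and that of the members from 0.29 to 0.17. The number of members called was then 12, all of them among the 30. The share of all genes called with total counts is not given here. The members' median lay 0.33 above that of all genes with TMM and 0.34 above it with total counts. The 12 members called with both scalings were RPS12, RPS23, RPS24, RPS25, RPS4X, RPL7, RPL12, RPL26, RPL31, RPL34, RPL36A and RPL38. Leaving out 1 library at a time gave 22 to 46 calls, and the highest number came without M512_sorafenib replicate 1. Without M512_sorafenib replicate 3 it was 27. The share of all genes called in these fits is not given here either.

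**Figure D2:**
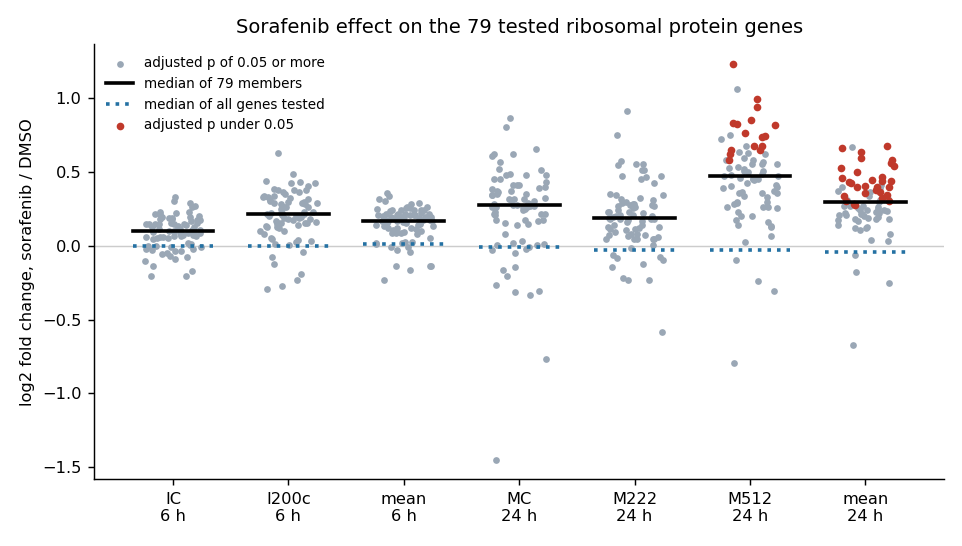
Log2 fold change of sorafenib over DMSO (vertical axis) for the 79 tested ribosomal protein genes in each transfection and for the mean effect at each time; red points have an adjusted p under 0.05, the black bar is the median of the members and the dotted blue bar the median of all genes tested. The member medians are 0.10, 0.21 and 0.17 at 6 h and 0.28, 0.19, 0.47 and 0.29 at 24 h, and called members appear in M512 and in the 24 h mean.

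RPS12, a small-subunit protein of the beak, had the smallest adjusted p. It was at 3050, 3718 and 2798 CPM with DMSO and 5366, 4281 and 5418 CPM with sorafenib in MC. In M222 it was at 2626, 4730 and 4010 CPM and then 4611, 5638 and 5971 CPM, and in M512 at 3705, 3781 and 4078 CPM and then 5161, 8050 and 6065 CPM. The sorafenib libraries were above the DMSO libraries without overlap in MC and M512, and in M222 1 sorafenib library was below the highest DMSO library. The mean effect was 0.64 ± 0.12 on the log2 scale (adjusted p = 0.000356), and RPS12 was called in each of the 18 fits without 1 library and with either scaling.

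RPL26, which lies close to the exit of the peptide tunnel, had the highest mean effect among the members, 0.68 ± 0.15 (adjusted p = 0.00143). Its levels were 942, 1457 and 1134 CPM with DMSO and 1498, 1608 and 1949 CPM with sorafenib in MC. In M512 they were 1513, 1533 and 1406 CPM with DMSO and 1729, 3492 and 3322 CPM with sorafenib. The groups did not overlap in either transfection, although M512_sorafenib replicate 1 stood well below the other 2. In M222 the levels were 866, 1694 and 1361 CPM and 1417, 2101 and 2315 CPM, which overlapped.

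RPL34 and RPS24, with a mean effect of 0.59 ± 0.13 (adjusted p = 0.0012) and 0.58 ± 0.12 (adjusted p = 0.000822), both separated without overlap in MC, and each in 1 further transfection. In MC RPL34 was at 984, 1236 and 814 CPM with DMSO and 1425, 1369 and 1827 CPM with sorafenib, and RPS24 at 2157, 2260 and 1657 CPM and then 2942, 2454 and 2901 CPM. RPL34 was at 986, 1056 and 1182 CPM with DMSO and 1604, 1911 and 1914 CPM with sorafenib in M222, with no overlap. RPS24, one of the genes mutated in Diamond-Blackfan anaemia, was at 2500, 2588 and 2307 CPM with DMSO and 3168, 5267 and 4603 CPM with sorafenib in M512. RPL34 in M512 overlapped, with 1149, 1438 and 1448 CPM against 1720, 1189 and 2497 CPM. RPS24 in M222 overlapped as well, with 1699, 2736 and 2268 CPM against 2537, 3206 and 3489 CPM. Whether the effect on either gene differed between the transfections did not pass the interaction test.

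RPL12, a protein at the base of the stalk, was the steadiest of the called members. It was at 569, 614 and 550 CPM with DMSO and 877, 655 and 709 CPM with sorafenib in MC, and at 514, 459 and 493 CPM against 731, 931 and 934 CPM in M512. Both transfections separated without overlap, while M222 did not, at 533, 675 and 647 CPM against 606, 709 and 798 CPM. The mean effect was 0.46 ± 0.10 (adjusted p = 0.00148). RPL38, RPL31 and RPS20 were the 3 of 79 members whose sorafenib libraries were above the DMSO libraries in each of MC, M222 and M512, a pattern that 3.98% of all genes tested had, so the number is at the level of all genes. RPL38, known for its part in translation of homeobox mRNAs, was at 850, 1065 and 726 CPM against 1168, 1173 and 1163 CPM in MC and at 911, 914 and 864 CPM against 1217, 1251 and 1259 CPM in M222 (mean effect 0.50 ± 0.11, adjusted p = 0.00162).

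The further called members with the smallest adjusted p were RPL36A, RPL31, RPS4X, RPL24, RPS23, RPL7, RPS25, RPL32 and RPL11. Their mean effects were between 0.38 (RPL32) and 0.56 (RPS23), with adjusted p from 0.00238 to 0.0106 by the edgeR test. RPS23 is part of the decoding centre, RPL24 forms a bridge between the subunits, and RPS4X is an X-linked small-subunit gene. With total counts the effects of RPL24, RPL32 and RPL11 no longer passed the threshold.

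**Figure D3:**
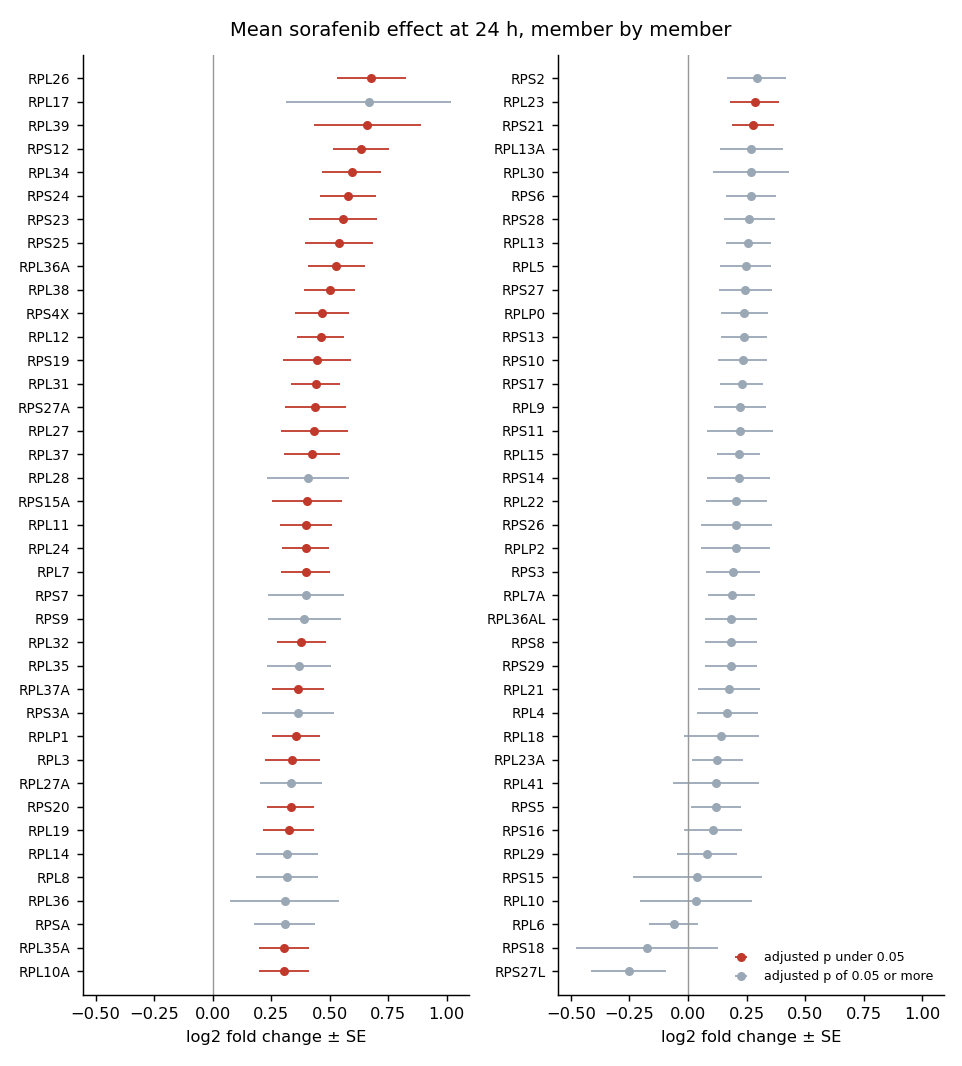
Mean sorafenib effect at 24 h for the tested ribosomal protein genes named on the vertical axis, as log2 fold change ± SE on the horizontal axis, ordered from highest to lowest over both panels; red genes have an adjusted p under 0.05. The plotted values run from 0.68 (RPL26) to -0.25 (RPS27L), and the 30 called genes are all above 0.

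In the separate transfections the calls fell in M512. The median log2 fold change of the members was 0.28 in MC, 0.19 in M222 and 0.47 in M512, with -0.01, -0.03 and -0.03 for all genes. With edgeR 0 members were called in MC (all genes 2.6%), 0 in M222 (4.38%) and 16 in M512, all higher (all genes 9.96%, called higher 5.34%, called lower 4.62%). At an unadjusted p under 0.05 the counts were 15, 6 and 43 (19.0%, 7.59% and 54.4% of the members, against 16.9%, 19.1% and 24.2% of all genes), and DESeq2 called 0, 1 and 29. The M222 share was thus below that of all genes and the MC share near it. Members whose lowest sorafenib library exceeded the highest DMSO library numbered 33 in MC (all genes 13%), 15 in M222 (13.6%) and 34 in M512 (13.5%). MC and M512 thus had near equal numbers of members that separated, while the calls differed.

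Whether the effect itself differed was tested by interaction terms. The interaction of M512 with sorafenib had a median of 0.21 over the members, and 0 members were called (all genes 0.00755%), with 3 at an unadjusted p under 0.05 (5.04% of all genes were under it) and 0 by DESeq2. The smallest p was that of RPL8, a protein near the peptidyl transferase centre, at 0.83 ± 0.32 (unadjusted p = 0.0163, adjusted p = 0.916). The interaction of M222 had a median of -0.06 and that of I200c 0.13, each with 0 members called (all genes 0% for both), 0 at an unadjusted p under 0.05 and 0 by DESeq2. Without M512_sorafenib replicate 3 or I200c_DMSO replicate 2 the interactions of M512 and I200c again had 0 calls. The interaction of time with sorafenib in the controls had a median of 0.13 and 0 calls (all genes 0.216%), with 4 at an unadjusted p under 0.05 (5.06%, against 13.7% of all genes), led by RPS12 at 0.62 ± 0.21 (adjusted p = 0.208), and 0 by DESeq2.

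Of the 16 members called in M512, RPL12 had the smallest adjusted p (0.82 ± 0.18, adjusted p = 0.00328). RPL28 had the highest fold change, 1.23 ± 0.31 (adjusted p = 0.0111), from 136, 118 and 114 CPM with DMSO to 345, 248 and 273 CPM with sorafenib. The DMSO and sorafenib levels of RPL28 in M512 were well apart, but in M222 they were 339, 131 and 193 CPM against 241, 163 and 161 CPM, and in MC 196, 106 and 194 CPM against 289, 137 and 155 CPM, which overlapped. RPS9 (0.99 ± 0.27), RPL36A (0.85 ± 0.21), RPL8 (0.83 ± 0.23), RPS24 (0.82 ± 0.21), RPL35 (0.76 ± 0.24), RPS4X (0.74 ± 0.20) and RPS12 (0.74 ± 0.21) were next in size among the called genes other than RPL26 (0.94 ± 0.26). RPL39, which lines the peptide tunnel, was at 1.06 ± 0.40 and did not pass (adjusted p = 0.0924).

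RPS3, the member at the mRNA entry, was called in M512 at 0.67 ± 0.20, from 2538, 2197 and 1819 CPM to 3346, 3670 and 3426 CPM. In M222 the same gene stood at 2992, 2258 and 2907 CPM with DMSO and 2411, 2064 and 2463 CPM with sorafenib, a fold change of -0.23 ± 0.20. The remaining called members in M512 (RPL7, RPL24, RPL32, RPL38 and RPLP1) were between 0.58 and 0.68.

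The number of members called in M512 changed when single libraries were left out. The calls numbered 9, 6 and 5 without DMSO replicate 1, 2 or 3, and 28, 7 and 13 without sorafenib replicate 1, 2 or 3. The share of all genes called in these fits is not given here, so a change common to all genes cannot be told apart. With total counts 4 remained, RPL12, RPL28, RPL36A and RPS24. RPL12 and RPL28 were called in all 6 fits without 1 library. The median of the members in M512 was between 0.38 and 0.55 in these 6 fits and 0.28 with total counts.

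**Figure D4:**
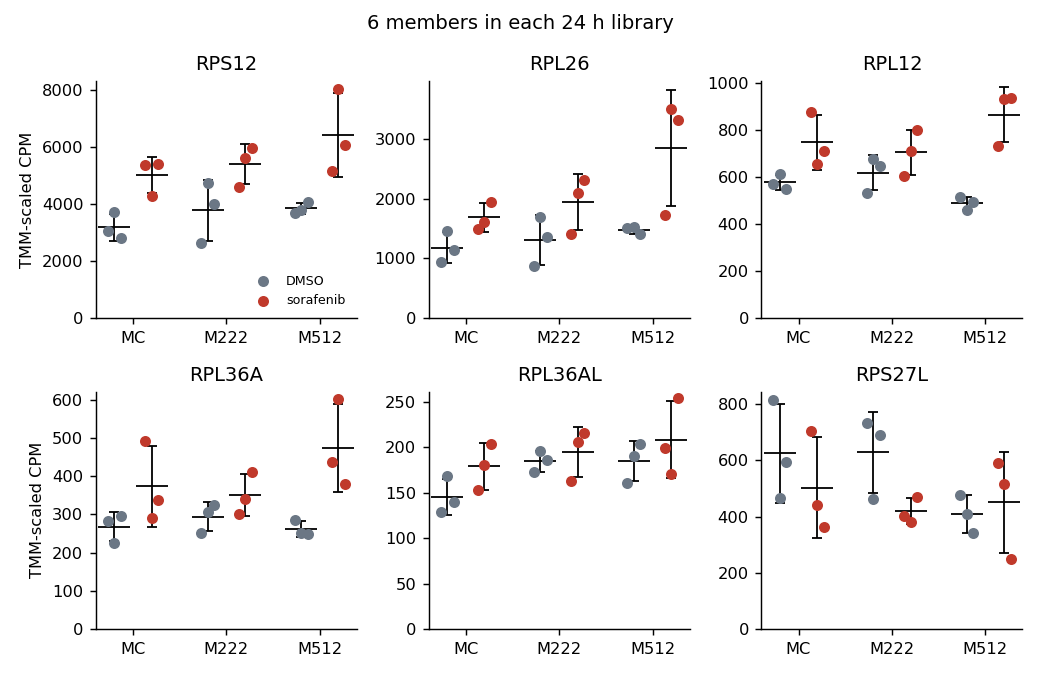
TMM-scaled CPM (vertical axes from 0) of 6 ribosomal protein genes in each of the 18 libraries at 24 h, with DMSO in grey and sorafenib in red and the mean ± SD of 3 in black. RPS12, RPL26 and RPL12 separate without overlap in MC and M512, RPL36A separates in M512, and RPL36AL and RPS27L overlap in MC, M222 and M512.

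Among the stalk genes, which recruit the elongation factors, RPLP1 alone was called for the mean effect at 24 h, at 0.36 ± 0.10 (adjusted p = 0.0109). With total counts in edgeR, RPLP1 was not called (adjusted p = 0.0937). In M512 it was at 2101, 2267 and 1921 CPM with DMSO and 2876, 3223 and 3308 CPM with sorafenib. RPLP0 (0.24 ± 0.10, adjusted p = 0.0822) and RPLP2 (0.20 ± 0.15, adjusted p = 0.331) did not pass. RPLP2 was at 872, 853 and 1699 CPM in MC with DMSO and at 817, 1707 and 1266 CPM in M512 with DMSO, so that replicate 3 of MC and replicate 2 of M512 stood apart. RPSA, the small-subunit protein also known as the laminin receptor, was at 0.31 ± 0.13 (adjusted p = 0.0819).

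RPS6, the target of the S6 kinases, had the sixth highest share of the members. With DMSO it was at 2225, 2598 and 2545 CPM in MC and with sorafenib at 2618, 2853 and 3356 CPM, without overlap. The mean effect at 24 h was 0.27 ± 0.10 (adjusted p = 0.0614). RPL5 and RPL11 bind MDM2 together with the 5S ribosomal RNA, and RPL23 binds it too. Of these, RPL11 (0.40 ± 0.11, adjusted p = 0.0106) and RPL23 (0.28 ± 0.10, adjusted p = 0.0447) were called, and RPL5 was not (0.25 ± 0.11, adjusted p = 0.0999). With total counts in edgeR, RPL11 (adjusted p = 0.0685) and RPL23 (adjusted p = 0.29) were not called. RPL11 was at 1061, 1342 and 1260 CPM against 1372, 1507 and 1758 CPM in MC. RPL23 was called in 11 of the 18 fits without 1 library, RPL3 (0.34 ± 0.12) in 11 and RPL39 (0.66 ± 0.23) in 10. Their adjusted p was highest without MC_DMSO replicate 3 (0.108), M512_DMSO replicate 1 (0.078) and MC_sorafenib replicate 1 (0.103), respectively.

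Sister genes were measured side by side in 2 pairs. RPL36A rose in the 24 h mean (0.53 ± 0.12, adjusted p = 0.00238) and RPL36AL, its copy on chromosome 14 without the TOP start, did not pass (0.18 ± 0.11, adjusted p = 0.233). In M512 RPL36A went from 286, 251 and 250 CPM to 438, 603 and 380 CPM, while RPL36AL was at 161, 190 and 204 CPM and 200, 171 and 255 CPM. The RPL36AL levels overlapped in M512 and those of RPL36A did not. RPS27 was at 0.24 ± 0.11 (adjusted p = 0.116) and RPS27L, a gene induced by p53, at -0.25 ± 0.16 (adjusted p = 0.26). RPS27L made up 62.5% ± 7.79 of the summed counts of the pair in MC with DMSO and 53% ± 6.82 with sorafenib (SD, n = 3). Whether sister and parent differed in their effect was not tested.

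RPL22 and RPL22L1 are a further pair, in which RPL22L1, the paralogue that RPL22 is known to hold down, lies outside the naming rule. RPL22 was at 0.21 ± 0.13 (adjusted p = 0.256). RPL22L1 rose by 1.55 ± 0.23 on the log2 scale (adjusted p = 2.01e-05), from 39.6, 70.8 and 19.5 CPM to 123, 126 and 176 CPM in MC and from 71.1, 69.8 and 40.8 CPM to 276, 168 and 190 CPM in M222. The levels did not overlap in either transfection. In M512 they did, at 74.1, 58.7 and 109 CPM against 209, 68.5 and 251 CPM. FAU, RACK1, RPL7L1 and RPL26L1, of the same machine but outside the rule, were between -0.20 and 0.19 and none was called.

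No member was called lower by edgeR in any 24 h contrast of sorafenib with DMSO. RPS18 was at -0.17 ± 0.30 for the mean effect and at -0.76 ± 0.53 in MC. In MC with DMSO RPS18 was at 33.5, 32.3 and 108 CPM, so that replicate 3 stood apart, and in M512 with DMSO replicate 2 did so, at 151 CPM. RPL17 had values of 0.80 ± 0.61 in MC, 0.91 ± 0.62 in M222 and 0.67 ± 0.35 for the mean, and did not pass in any of these (adjusted p = 0.172 for the mean). In M222 the lowest members were RPS27L (-0.59 ± 0.28) and RPS3.

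The oligonucleotides themselves moved no member beyond the test. With DMSO, I200c against IC had a median of -0.17 over the members and 0 calls (all genes 0.0157%), with 17 members at an unadjusted p under 0.05 (21.5%, against 5.24% of all genes), all lower, led by RPL26 at -0.65 ± 0.18 (adjusted p = 0.712). Without I200c_DMSO replicate 2 there were also 0 calls. With sorafenib the median was -0.04, with 0 calls (all genes 0%) and 1 member at an unadjusted p under 0.05. M222 against MC had medians of 0.12 with DMSO and 0.04 with sorafenib, 0 calls in both (all genes 0% in both) and 2 members each at an unadjusted p under 0.05. DESeq2 called 0 members in these 4 comparisons.

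M512 against MC had a median of 0.13 with DMSO and 0.29 with sorafenib, and 0 members were called (all genes 0.634% and 0.355%). The members at an unadjusted p under 0.05 numbered 4 and 23 (5.06% and 29.1%, against 10.5% and 11.1% of all genes), and DESeq2 called 1 (RPS27, lower) and 3 (RPL8, RPL18 and RPL35, higher). RPL35 with sorafenib was at 350, 430 and 403 CPM in MC and at 752, 881 and 752 CPM in M512, without overlap (1.01 log2, adjusted p = 0.0628 by edgeR). RPL18 was at 495, 550 and 550 CPM and at 1099, 1071 and 1107 CPM. Without M512_sorafenib replicate 3 edgeR again called 0. Between MC_DMSO and IC_DMSO, which differ in time and in the control oligonucleotide, the median was -0.06 and 0 members were called (all genes 0.528%), with 12 at an unadjusted p under 0.05 (15.2%, against 15.8% of all genes) and 0 by DESeq2. M222 and M512 share the MC libraries, so that these comparisons are not independent.

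Members with a seed match were set beside those without one, as a description with no test. For miR-512-3p, 8 tested members had a match (RPL13, RPL14, RPL23, RPL28, RPL37, RPL37A, RPS23 and RPS27L), and their median in M512 against MC was 0.10 with DMSO, with 0.13 for the 71 others, and 0.21 and 0.30 with sorafenib. For miR-222-5p the medians in M222 against MC were 0.07 over 6 members and 0.14 over 73 with DMSO, and 0.02 and 0.04 with sorafenib. For the miR-200c-3p inhibitor they were -0.21 over 7 and -0.16 over 72 with DMSO, and the order turned with sorafenib, at 0.01 and -0.04.

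The wider translation machinery was read from lists, with the mean effect at 24 h for each. Of all genes, 13.4% were called higher and 12.4% lower. Of 29 tested initiation factors 11 were called higher and 0 lower, with a median of 0.37. The leading ones were EIF1 (1.19 ± 0.12), which guards start codon choice, EIF2S2 (0.86 ± 0.12), a subunit of eIF2, and EIF4A2 (0.80 ± 0.13), a helicase. Among the 7 tested genes of the elongation list, EEF1D (0.58 ± 0.14), EEF1B2 (0.37 ± 0.10) and TPT1 (0.32 ± 0.10) rose. TPT1 is on that list but is not itself an elongation factor. The median of the list was 0.27.

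Ribosome assembly factors were called higher in 15 of 39 and lower in 1, with a median of 0.30. NMD3 (0.91 ± 0.14), the export adaptor of the large subunit, RIOK1 (0.77 ± 0.14), a kinase of small-subunit maturation, and UTP4 (0.70 ± 0.13) led, and the snoRNP protein NOP56 fell by 0.38 on the log2 scale. Genes of RNA polymerase I, which makes the ribosomal RNA precursor, were called higher in 6 of 14 and lower in 2. The number called lower was near the share of all genes (12.4%). POLR1F (1.26 ± 0.13), TAF1D (0.76 ± 0.11) and RRN3 (0.95 ± 0.16) rose, whereas the largest subunit, POLR1A (-0.69 ± 0.16), and TAF1B (-0.61 ± 0.20) fell.

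The host genes of small nucleolar RNAs, most of which are spliced noncoding transcripts, stood highest of the lists, with 11 of 13 called higher, 0 lower and a median of 0.87. EPB41L4A-AS1 (1.65 ± 0.16), GAS5 (1.03 ± 0.12) and SNHG32 (1.27 ± 0.15) had the smallest adjusted p. GAS5 was at 82.9, 115 and 93.9 CPM with DMSO and 228, 150 and 227 CPM with sorafenib in MC, and at 87.3, 97.0 and 87.2 CPM against 205, 223 and 311 CPM in M512. Neither transfection overlapped. The counting is not stated to use strand, so reads of an antisense host such as EPB41L4A-AS1 or ZFAS1 and of its partner gene cannot be told apart.

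Of 17 regulators of mTOR and of TOP mRNAs, 4 were called higher and 2 lower, with a median of 0.05. The number called lower was near the share of all genes (12.4%). DDIT4 (2.06 ± 0.30) and SESN2 (1.61 ± 0.15), both stress-induced inhibitors of mTOR complex 1, rose, as did RICTOR (0.70 ± 0.22). EIF4EBP2 (-0.90 ± 0.16), a repressor of initiation, and TSC1 (-0.63 ± 0.14), a brake on mTOR, fell. At 6 h the mean effect called 2.89% of all genes. It called 1 of the 16 tested genes of this list, DDIT4 (0.83, adjusted p = 0.00202). Of the 13 tested snoRNA hosts it called 2, SNHG32 (0.55, higher) and SNHG3 (-0.65, lower), and none of the other 5 lists.

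**Figure D5:**
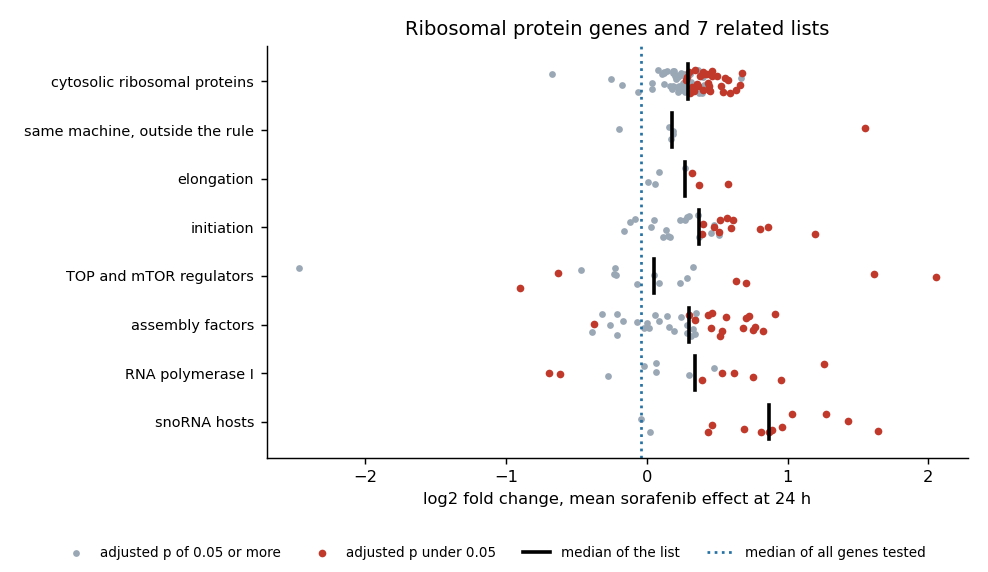
Mean sorafenib effect at 24 h (log2 fold change, horizontal axis) for the tested ribosomal protein genes and for 7 lists of related genes; red points have an adjusted p under 0.05, black bars are list medians and the dotted line is the median of all genes tested (-0.04). The medians are 0.29 for the ribosomal proteins, 0.37 for initiation and 0.87 for the snoRNA hosts.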

How the data were processed

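Reads of QuantSeq 3′ FWD libraries (RNA of 30 HepG2 cultures) were trimmed, aligned with STAR to GRCh38 and counted per gene with HTSeq-count by the authors; versions, the annotation release and the use of strand are not given in the sources used here. The deposited table holds raw counts per gene. The authors' second table, counts divided by size factors, was not used here. The 92 lines of the count table that named no gene held 3 counts and were left out. Total counts were 3938764 to 9657063 per library (median 6461000). A count of 0 allows up to 0.311 to 0.762 CPM (3 counts), which covers counting error only. Replicates within a group differed by more than counting error (chi-square per degree of freedom from 4.54).

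Genes kept by filterByExpr went into edgeR 4.0.16 (R 4.3.3) for two-sided quasi-likelihood testing, using TMM and a mean for each group, fitted to the 12 libraries of 6 h, the 18 of 24 h and the 12 control libraries (coefficient of variation between replicates 0.241, 0.356 and 0.259). P-values were adjusted by Benjamini-Hochberg over all genes tested, and genes under 0.05 were called. SE is the log2 fold change divided by the square root of F. The steps were tested on simulated data. Alternatives were total counts, DESeq2 1.42.0, no filter, a replicate block, TMM without ribosomal protein and mitochondrial genes, 6 libraries alone and leaving out each library. Shares of counts carry no test. P-values measure the spread between these cultures of 1 line.

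The members, lists and tests were chosen with earlier results of these data known. Genes named were, in each sorafenib contrast, the called members (at most 15) and the 2 highest and 2 lowest, the 5 highest and 5 lowest by share, members chosen by identity (stalk, RPSA, RPS6, the MDM2 binders, sister pairs, RPS4X, RPL41), and at most 3 called genes a direction in each list. Some genes that this rule takes are not reported here. Others are named where a count of 5 or fewer or a variable library called for it.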

Additional observations from a re-analysis of the deposited data

How the results depend on the processing

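Scaling to total counts gave 4 members called in M512 and 12 for the mean effect at 24 h, with medians of 0.164 in MC, 0.086 in M222, 0.28 in M512 and 0.167 for the mean. DESeq2 called 3 in I200c, 4 for the 6 h mean, 1 in M222, 29 in M512, 1 in M512 against MC in DMSO and 3 in sorafenib. Without a filter on low counts there were 2 calls in MC (1 lower, and RPL39 higher), 1 in M222, 1 in I200c against IC in DMSO and 1 in sorafenib, 1 in M222 against MC in DMSO and 1 in sorafenib, 1 in M512 against MC in DMSO and 7 in sorafenib, and 6 between MC_DMSO and IC_DMSO. Fitted to its 6 libraries alone, M222 had 1 call. Shares of all genes called under these alternatives, or without 1 library, are not given here, so these numbers have no background beside them. Without the 5 most abundant members the share differed by 0.897 points in I200c and 0.697 in MC. The groups then still did not overlap in I200c and M512. In MC they overlapped, with 6.82% in MC_DMSO replicate 3 and 6.81% in MC_sorafenib replicate 1, and in M222 they overlapped too.

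With 1 library left out at a time, calls were 22 to 46 for the 24 h mean, 5 to 28 in M512, 0 to 5 in I200c (5 without DMSO replicate 2), 0 to 2 for the 6 h mean and 0 to 3 between MC_DMSO and IC_DMSO (3 without MC_DMSO replicate 2). The medians ranged from 0.236 to 0.394 in MC and from 0.121 to 0.276 in M222.

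With the replicate block there were 44 calls for the 24 h mean, 22 in M512, 1 in MC (RPS12), 1 in M222 (RPL34) and 2 in M512 against MC in sorafenib. The labels do not say that a replicate number marks a shared culture or day, so the main fit did not treat the numbers as pairs. Deviations of same-numbered libraries correlated at -0.08 to 0.24 at 6 h and -0.13 to 0.21 at 24 h. Of these pairs, 2 of 18 and 10 of 45 were above 0.1. With 3 libraries to choose from in each other group, a library correlated best with its own number in 16 of 36 and 51 of 90 cases. That is a hint from the data at 24 h that some numbers may share a source, and pairing cannot be settled here. Overlap between groups was read without pairing. The share in M222 rose with sorafenib at each number although the groups overlapped, and in IC it fell at replicate 2. Members' medians stayed above 0 in every sorafenib comparison under each alternative. The cause of the other changes was not tested. Low counts limit RPL17 and RPS18.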
